A study of Rattus norvegicus with 12 samples.

Results

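The genes described here are 9 markers of lymphatic vessels and members of the angiopoietin-Tie system: Prox1, Lyve1, Pdpn, Ccbe1, Tie1, Tek, Angpt1, Angpt2 and Mrc1. They were chosen by name, with earlier results of these data known. The count table of all 12 libraries matched 8 of the 9 among its 17337 rows, and Ccbe1 was not analysed here. All 8 passed the filter on low counts, which left 12850 genes for testing.

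The libraries were made from brain (the design text says middle brain) of male Sprague-Dawley rats labelled as postnatal day 60, with 3 libraries in each of 4 groups. BDL+AAV-VEGFC rats had a ligated bile duct for 4 weeks and received an adeno-associated virus (AAV) labelled with vascular endothelial growth factor C, the growth factor of lymphatic vessels. BDL+AAV-GFP rats had the same ligation and an AAV labelled with green fluorescent protein. BDL rats had the ligation for 4 weeks and no vector on their labels, and sham rats had neither ligation nor vector. These groups are called AAV-VEGFC, AAV-GFP, BDL and sham below. Each vector was injected in 20 µl into the fluid of the cisterna magna at the back of the brain. The labels give no injection for the other groups, and neither transgene has its promoter or species stated there. Ligation stops bile flow, scars the liver and is used to model hepatic encephalopathy, a brain disorder of liver failure.

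The lymphatic vessels that drain the brain run in its meninges, and VEGFC acts on them through its receptor Flt4. Lymphatic endothelial cells are known by the transcription factor Prox1, the hyaluronan receptor Lyve1 and the membrane glycoprotein podoplanin (Pdpn). None of the 3 belongs to these cells alone: Prox1 is also expressed by granule neurons of the dentate gyrus and by some interneurons, and Lyve1, together with the mannose receptor Mrc1, by macrophages at the borders of the brain. The angiopoietins are ligands of the receptor tyrosine kinase Tek, also called Tie2, on blood and lymphatic endothelium. Angpt1, made largely by cells around vessels, activates Tek and favours quiet, tight vessels. Angpt2, released by endothelium, acts on the same receptor as a weak or context-dependent agonist. Tie1 is a related receptor that pairs with Tek.

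Totals lay between 40296297 and 51669067 counts per library. Members were counted at 35 reads (Angpt2 in sham 1) to 2078 reads (Pdpn in AAV-VEGFC 1), so counting error alone was at most 16.9% of a value. Forebrain transcripts were abundant and those of midbrain monoamine neurons scarce: Slc17a7, a vesicular glutamate transporter, lay between 1250 and 2030 CPM (reads of a gene scaled to library size), and tyrosine hydroxylase (Th), which makes the precursor of dopamine, between 0.652 and 1.7 CPM. Of 9 midbrain markers with a row, 4 passed the filter, and Foxa2 was at 0 in all 12 libraries. Sham 2, AAV-GFP 1 and AAV-VEGFC 1 stood apart. AAV-VEGFC 1 and AAV-GFP 1 correlated least with the remaining libraries (mean r of log2 CPM 0.968 and 0.972), and sham 2 held 617 CPM summed over 15 choroid plexus genes, where the other libraries held 180 to 282 CPM. Calls of members that depend on these libraries are given with and without them. Calls of other genes are given for all 12 libraries only. All levels are CPM of a gene, and are compared between libraries, not between genes. Differences are log2 fold changes ± SE. Each adjusted p comes from the quasi-likelihood test of edgeR, with Benjamini-Hochberg adjustment over all 12850 genes, and values under 0.05 counted as calls. In bulk tissue, fewer cells of a type and less RNA per cell cannot be told apart.

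**Figure D1:**
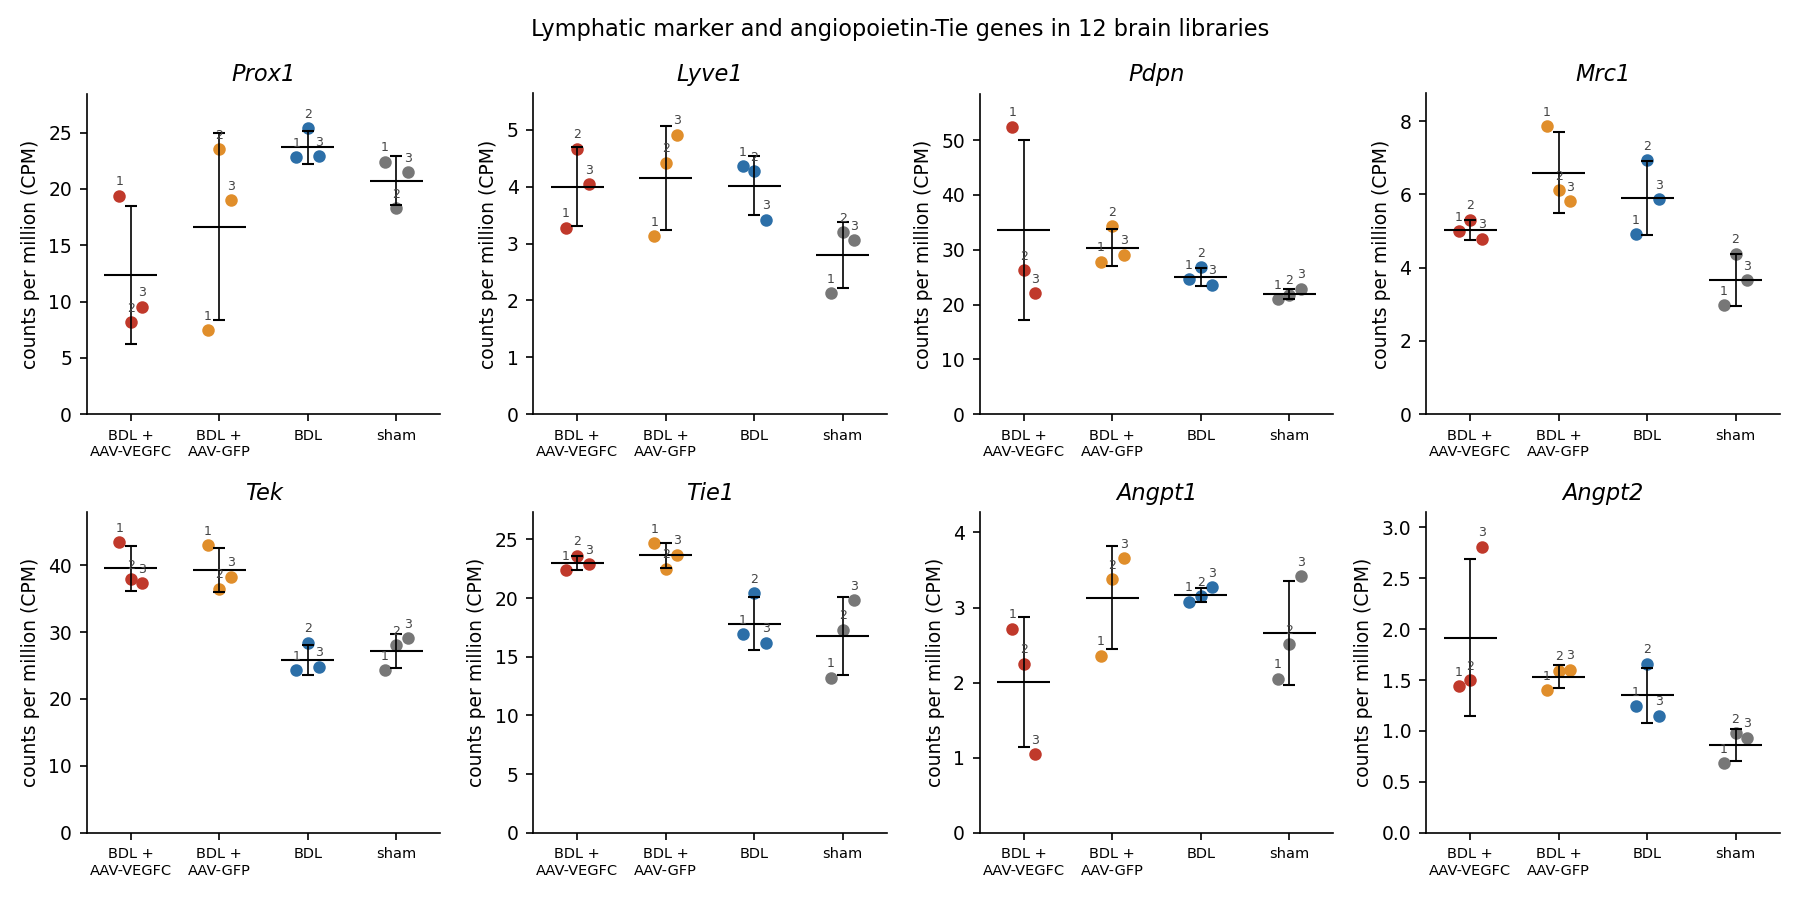
Level of each of the 8 genes in every library, in CPM (vertical axis, from 0), by group (horizontal axis). Points are libraries with their replicate number, the bar is the mean and the whisker the SD over 3 libraries. Tek lies at 36.5 CPM or more in the 6 libraries with a vector and at 29.1 CPM or less in the other 6.

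The receptor Tek rose with either vector, and of the 8 genes it was the one that passed the edgeR test of all libraries. Other tools or sets of libraries also called Tie1, Pdpn, Prox1 or Mrc1, as given for each below. It was at 43.4, 37.9 and 37.3 CPM in AAV-VEGFC rats and at 43.0, 36.5 and 38.3 CPM in AAV-GFP rats. It was at 24.3, 28.4 and 24.8 CPM in BDL rats and at 24.3, 28.0 and 29.1 CPM in sham rats. Every library with a vector was above every library without one, and the means were 39.5 ± 3.35 CPM in AAV-VEGFC, 39.3 ± 3.34 CPM in AAV-GFP, 25.8 ± 2.26 CPM in BDL and 27.2 ± 2.53 CPM in sham rats (SD, n = 3 each). Against BDL, Tek rose by a log2 fold change of 0.60 ± 0.10 with AAV-GFP (adjusted p = 0.00525). With AAV-VEGFC it rose by 0.61 ± 0.10 (adjusted p = 0.00376). Both comparisons use the same 3 BDL libraries. The share of all tested genes called higher was 0.988% for AAV-GFP (6.19% in either direction) and 2.91% for AAV-VEGFC (9.93%), and 1 of the 8 members was called in each. Between AAV-VEGFC and AAV-GFP the log2 difference in Tek was 0.0099 (95% interval -0.21 to 0.23), and between BDL and sham it was -0.071 (-0.30 to 0.15), neither past the threshold. The Tek calls held under all 14 alternatives, with adjusted p up to 0.0332 for AAV-GFP, where 2.98% to 36.5% of all genes were called, and up to 0.0355 for AAV-VEGFC, where 2.62% to 24.2% were.

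Tie1, the partner receptor, split the libraries the same way as Tek without passing the test. It was at 22.4, 23.6 and 22.9 CPM in AAV-VEGFC rats and at 24.7, 22.5 and 23.7 CPM in AAV-GFP rats. It was at 16.9, 20.4 and 16.2 CPM in BDL rats and at 13.2, 17.3 and 19.8 CPM in sham rats. The 6 libraries with a vector lay above the other 6, and BDL and sham overlapped. The first principal component of log2 CPM over all tested genes, the main axis of difference between libraries, split them the same way. It ran from -41.6 to -14.9 in libraries with a vector and from 15.2 to 35.6 in the others. The split is therefore not particular to Tek and Tie1, and the share of all genes that show it was not computed. The log2 fold change against BDL was 0.40 ± 0.14 with AAV-GFP (adjusted p = 0.117) and 0.36 ± 0.14 with AAV-VEGFC (adjusted p = 0.11). The difference between AAV-VEGFC and AAV-GFP was -0.039 (95% interval -0.34 to 0.26), and that between BDL and sham 0.094 (-0.21 to 0.39). For AAV-GFP against BDL, Tie1 passed with limma voom (adjusted p = 0.0247, where 36.5% of all genes were called) and in a fit of those 6 libraries alone (adjusted p = 0.042, 16.1% called). Over the 12 libraries the log2 CPM of Tie1 and Tek had a Pearson correlation of 0.90, a description of libraries that share their groups. In AAV-GFP against BDL, the groups did not overlap, on the higher side, for 3 of the 8 members (Tek, Tie1 and Pdpn), against 18.2% of all genes, and on the lower side for 0 of 8, against 20% of all genes.

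Windows around the gene start were matched by symbol for 4 of the 8 members (Lyve1, Pdpn, Tie1 and Mrc1). That of Tie1 is shown because Tie1 parted the same 6 libraries from the others as Tek did. It covers 250 bases before and 50 after the RefSeq start at chr5:137304932-137305231 of build GRCr8, minus strand, and is credited to RefSeq, whereas the counts rest on build rn6. Capitals mark the letters AGGAAG or GAGGAA on either strand (CTTCCT or TTCCTC), which hold the GGAA core that ETS-family factors bind. The letters overlap each other in the run printed here.
Tie1: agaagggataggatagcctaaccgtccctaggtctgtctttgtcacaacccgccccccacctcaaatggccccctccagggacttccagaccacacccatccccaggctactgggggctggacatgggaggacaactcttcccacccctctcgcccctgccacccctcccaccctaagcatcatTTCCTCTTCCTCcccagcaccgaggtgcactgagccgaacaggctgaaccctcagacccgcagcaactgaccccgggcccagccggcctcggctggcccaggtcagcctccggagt
The window holds 1 match of AGGAAG and 2 of GAGGAA, none of TATAAA on either strand, and 64.3% of its bases are G or C. Of 33469 windows of the same length, 34.5% hold AGGAAG on either strand, 27.6% hold GAGGAA and 14.2% hold TATAAA, so such letters are common, and a match is a description of the sequence.

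**Figure D2:**
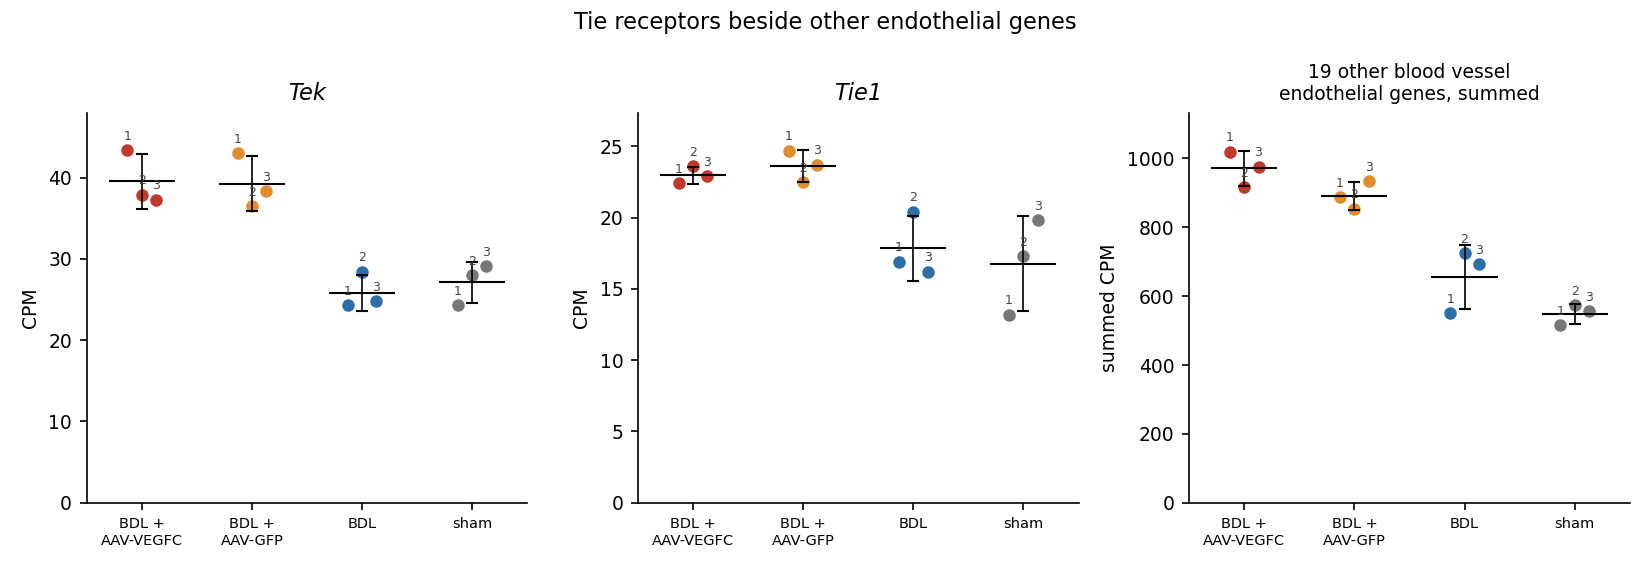
Tek, Tie1 and the summed level of 19 other genes of blood vessel endothelium in each library (vertical axes in CPM, from 0), by group. Points are libraries with their replicate number, bars are means and whiskers SD over 3 libraries. The summed level runs from 854 to 1020 CPM in libraries with a vector and from 516 to 725 CPM in the others, the same split as Tek.

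Several genes of blood vessel endothelium rose beside Tek with either vector. Of 20 listed, 19 had a row and were tested. With AAV-GFP 5 of the 19 rose against BDL, where 0.988% of all genes did, and 0 fell, with a median log2 fold change of 0.42 over the list and 0.01 over all genes. With AAV-VEGFC 8 rose, where 2.91% of all genes did, and 0 fell, with medians of 0.44 and 0.00. Cldn5, a tight junction protein, averaged 127 ± 26.8 CPM in AAV-VEGFC rats, 116 ± 6.21 CPM in AAV-GFP rats and 61.4 ± 6.92 CPM in BDL rats (SD, n = 3 each). Its log2 fold changes against BDL were 1.05 ± 0.13 (adjusted p = 0.000815) and 0.91 ± 0.13 (adjusted p = 0.0021). Pecam1, an adhesion molecule, and Itm2a also rose in both comparisons, by 0.72 ± 0.12 and 0.59 ± 0.10 with AAV-VEGFC and by 0.68 ± 0.12 and 0.58 ± 0.10 with AAV-GFP (largest adjusted p = 0.00712). The summed list ran from 917 to 1020 CPM in AAV-VEGFC rats, 854 to 934 CPM in AAV-GFP rats, 551 to 725 CPM in BDL rats and 516 to 573 CPM in sham rats. Robo4 was at 0 in some library and the other 18 in none. The share of counts in Rn18s, an 18S ribosomal RNA, split the libraries in the same way, at 0.749% to 1.16% in AAV-VEGFC, 0.43% to 1.12% in AAV-GFP, 0.181% to 0.306% in BDL and 0.137% to 0.168% in sham. The part of either in the Tek difference was not tested, and vector, injection and any shared handling of those 6 libraries cannot be told apart.

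**Figure D3:**
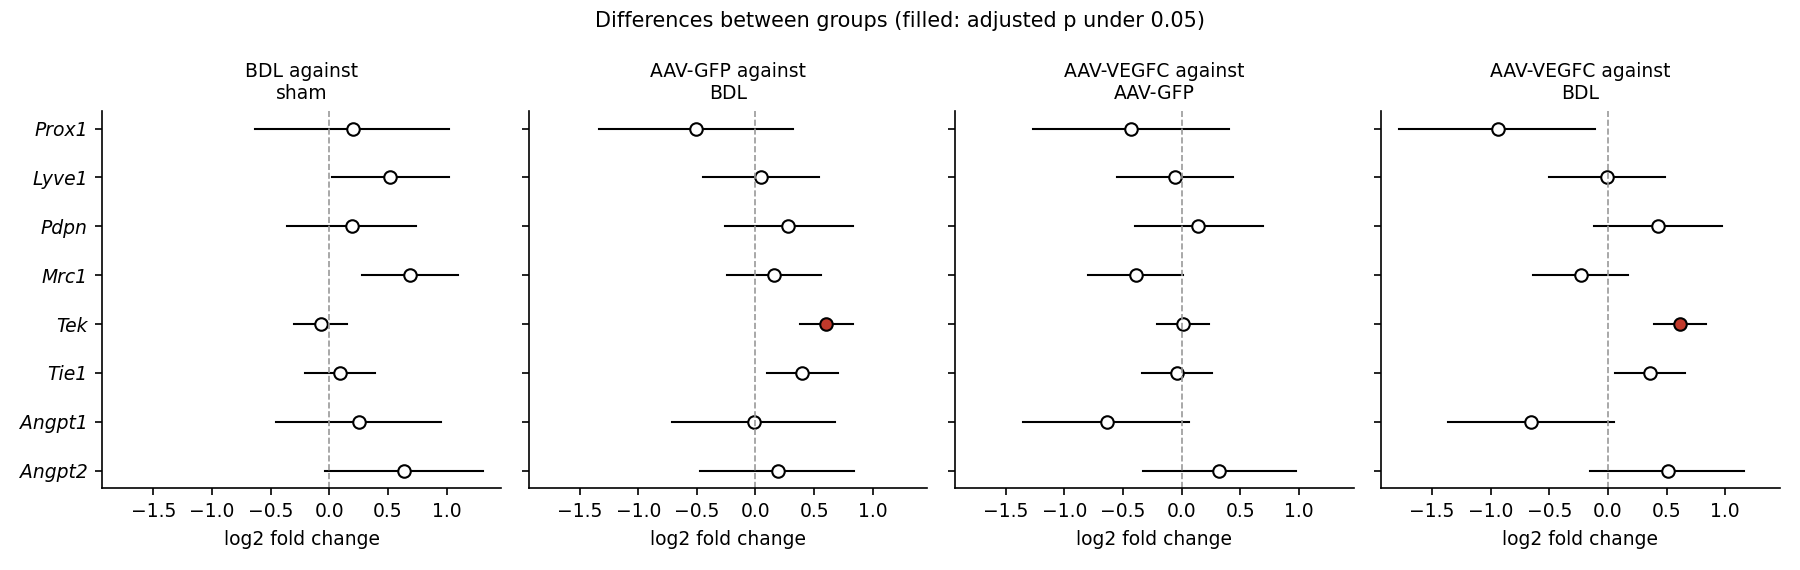
Log2 fold change (horizontal axis) of each gene in the 4 comparisons, with the 95% interval from the edgeR fit as a line. Filled points passed an adjusted p under 0.05: Tek at 0.60 with AAV-GFP and 0.61 with AAV-VEGFC, each against BDL.

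Neither Angpt1 nor Angpt2 passed the test in any comparison. Angpt4, counted with the other signalling genes below, lay between 0.218 and 1.19 CPM and was not called either. Angpt2 was at 1.44, 1.5 and 2.81 CPM in AAV-VEGFC rats and at 1.4, 1.59 and 1.6 CPM in AAV-GFP rats. It was at 1.24, 1.66 and 1.15 CPM in BDL rats and at 0.684, 0.978 and 0.932 CPM in sham rats. All 9 ligated libraries lay above all 3 sham libraries, and AAV-VEGFC 3 was the highest. In BDL against sham the log2 fold change was 0.64 ± 0.31 (95% interval -0.032 to 1.31, adjusted p = 0.885). AAV-VEGFC against AAV-GFP gave 0.32 ± 0.30 (adjusted p = 0.948), with values from -0.061 without AAV-VEGFC 3 to 0.49 without AAV-VEGFC 1. AAV-VEGFC against BDL gave 0.51 ± 0.30 (adjusted p = 0.28), from 0.12 without AAV-VEGFC 3 to 0.68 without AAV-VEGFC 1 or without BDL 2, and AAV-GFP against BDL gave 0.19 ± 0.30 (adjusted p = 0.771).

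Angpt1 was at 2.72, 2.25 and 1.05 CPM in AAV-VEGFC rats and at 2.36, 3.38 and 3.66 CPM in AAV-GFP rats. It was at 3.08, 3.15 and 3.27 CPM in BDL rats and at 2.05, 2.51 and 3.42 CPM in sham rats. The AAV-VEGFC libraries lay below the BDL libraries and overlapped those of AAV-GFP and sham, and AAV-VEGFC 3 held the lowest value of the 12. AAV-VEGFC had a log2 fold change of -0.66 ± 0.32 against BDL (adjusted p = 0.201) and -0.64 ± 0.32 against AAV-GFP (adjusted p = 0.948). Leaving out 1 library at a time, the value against BDL ran from -0.93 without AAV-VEGFC 1 (adjusted p = 0.0828) to -0.35 without AAV-VEGFC 3. The value against AAV-GFP ran from -0.92 without AAV-VEGFC 1 to -0.33 without AAV-VEGFC 3, and was -1.08 without the 3 libraries that stood apart. In BDL against sham it was 0.25 ± 0.32 (adjusted p = 1), and in AAV-GFP against BDL -0.015 ± 0.32 (adjusted p = 0.987).

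The ratio of Angpt2 reads to Angpt1 reads within a library, which library size does not affect, was 0.528, 0.664 and 2.67 in AAV-VEGFC rats and 0.593, 0.471 and 0.438 in AAV-GFP rats. It was 0.401, 0.527 and 0.35 in BDL rats and 0.333, 0.39 and 0.273 in sham rats. The ratio in AAV-VEGFC 3 rested on 128 and 48 reads and was above every other library. The remaining 11 libraries lay between 0.273 and 0.664. The ratio is not corrected for transcript length, so it compares libraries and is not a ratio of molecules.

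**Figure D4:**
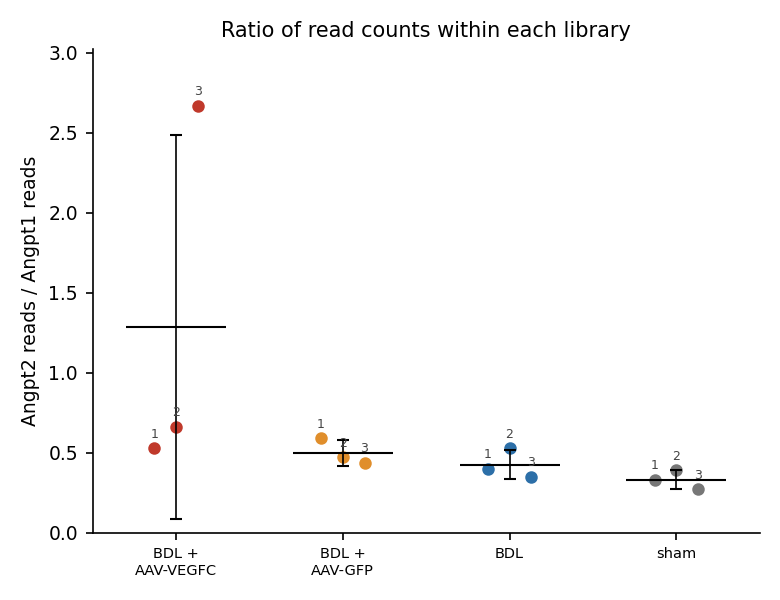
Ratio of Angpt2 to Angpt1 read counts within each library (vertical axis, no unit, from 0), by group. Points are libraries with their replicate number, bars are means and whiskers SD over 3 libraries. AAV-VEGFC 3 stands at 2.67 and the other 11 libraries at 0.664 or less.

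At most 1 other gene of angiopoietin-Tie signalling was called in any comparison. Of 23 listed, 20 were tested. In BDL against sham 0 were called, against 0.109% of all genes, and in AAV-GFP against BDL 0, against 6.19%. In AAV-VEGFC against AAV-GFP 0 were called, against 0.00778%. In AAV-VEGFC against BDL 1 rose, against 2.91% of all genes (9.93% in either direction): Klf2, a transcription factor induced in endothelium by blood flow. Klf2 averaged 16.0 ± 3.06 CPM in AAV-VEGFC rats, 9.55 ± 1.12 CPM in AAV-GFP rats and 6.97 ± 2.01 CPM in BDL rats (SD, n = 3 each). Its log2 fold change was 1.20 ± 0.20 against BDL (adjusted p = 0.00395) and 0.75 ± 0.20 against AAV-GFP (adjusted p = 0.948). List medians lay between 0.00 and 0.07 over the 4 comparisons, and those of all genes between 0.00 and 0.01. The summed list overlapped between all groups, at 1690 to 1970 CPM in AAV-VEGFC, 1740 to 1790 CPM in AAV-GFP, 1640 to 1790 CPM in BDL and 1770 to 1810 CPM in sham. Ptpn11, at 476 to 577 CPM, and Pak1, at 257 to 488 CPM, held the most CPM in it. The sum was not computed without them.

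Prox1, the factor that sets lymphatic identity, did not pass the test in any comparison and spread widely among the libraries with a vector. It was at 19.4, 8.18 and 9.56 CPM in AAV-VEGFC rats and at 7.47, 23.5 and 19 CPM in AAV-GFP rats. It was at 22.8, 25.4 and 22.9 CPM in BDL rats and at 22.4, 18.3 and 21.5 CPM in sham rats. AAV-VEGFC 2, AAV-VEGFC 3 and AAV-GFP 1 lay below 10 CPM and the other 9 libraries above 18 CPM. The log2 fold change of AAV-VEGFC was -0.94 ± 0.38 against BDL (95% interval -1.78 to -0.11, adjusted p = 0.13) and -0.43 ± 0.38 against AAV-GFP (adjusted p = 0.948). Leaving out 1 library at a time, the value against AAV-GFP ran from -0.91 without AAV-VEGFC 1 to -0.10 without AAV-GFP 2. In BDL against sham it was 0.20 ± 0.37 (adjusted p = 1). The call depended on the tool and on the libraries kept. With limma voom the difference from BDL was -1.39 and passed (adjusted p = 0.00664, with 19.4% of all genes called). Without AAV-VEGFC 1 the difference from BDL was -1.42 and passed (adjusted p = 0.0246, with 17.6% of all genes called). Without sham 2, AAV-GFP 1 and AAV-VEGFC 1 AAV-VEGFC passed against BDL (-1.42, adjusted p = 0.000115, 24.2% called) and against AAV-GFP (-1.26, adjusted p = 0.0029, 9.26% called), in a fit that drops a low AAV-GFP library and the high AAV-VEGFC library. In AAV-GFP against BDL the log2 fold change was -0.51 ± 0.38 (adjusted p = 0.488), with values from -0.84 without AAV-GFP 2 to -0.16 without AAV-GFP 1.

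Neuronal markers that share cells with Prox1 were set beside it. Of 10 markers of dentate granule neurons 8 had a row and 6 were tested, and 2 of them fell with either vector against BDL, where 5.2% (AAV-GFP) and 7.02% (AAV-VEGFC) of all genes were called lower. Plk5, of the polo-like kinase family, averaged 6.31 ± 0.755 CPM in AAV-VEGFC rats, 7.2 ± 0.979 CPM in AAV-GFP rats and 12.7 ± 1.11 CPM in BDL rats (SD, n = 3 each; adjusted p = 0.00112 and 0.00446 against BDL). C1ql3, a secreted synaptic protein, averaged 60.5 ± 9.03 CPM in AAV-VEGFC rats, 57.6 ± 6.23 CPM in AAV-GFP rats and 83.7 ± 5.25 CPM in BDL rats (SD, n = 3 each; adjusted p = 0.0232 and 0.0154). In sham rats C1ql3 averaged 64.6 ± 2.84 CPM, nearer the vector groups than BDL. Its log2 fold change in BDL against sham was 0.37 ± 0.11 (adjusted p = 0.497). Plk5 averaged 12.7 ± 1.13 CPM in sham rats, as in BDL. The summed dentate list was 285, 234 and 202 CPM in AAV-VEGFC rats, 260, 223 and 226 CPM in AAV-GFP rats, 280 to 321 CPM in BDL rats and 237 to 267 CPM in sham rats. Tdo2 was at 0 in 11 of the 12 libraries. The sum rests largely on Calb1 (91.2 to 162 CPM) and C1ql3 (51.0 to 89.7 CPM) and was not computed without them. C1ql2 ran from 4.04 to 36.3 CPM in AAV-VEGFC and from 2.55 to 30.9 CPM in AAV-GFP. In BDL it ran from 16.9 to 19.2 CPM and in sham from 7.93 to 11.6 CPM. Its lowest value of the 12 libraries was thus in an AAV-GFP library and its highest in an AAV-VEGFC library. AAV-GFP 1, the library lowest in Prox1, had the highest dentate sum of its group. AAV-VEGFC 1, the library of its group highest in Prox1, also had the highest dentate sum of its group. The part of these neurons in the Prox1 values was not tested. Of 10 markers of interneurons from the caudal ganglionic eminence, which also express Prox1, 9 were tested. In AAV-VEGFC against BDL 2 of the 9 rose, where 2.91% of all genes did, the neuropeptide genes Cck and Vip. In the other 3 comparisons 0 were called. Only 3 of the 9 fold changes of AAV-VEGFC against BDL were above 0, with a list median of -0.19. Without overlap 2 lay higher, against 14.6% of all genes, and 3 lower, against 18.3%. The list sum ran from 525 to 624 CPM in AAV-VEGFC, 481 to 544 CPM in AAV-GFP, 459 to 477 CPM in BDL and 535 to 562 CPM in sham rats. Cck alone averaged 277 ± 12.1 CPM of it in AAV-VEGFC and 209 ± 5.39 CPM in BDL rats.

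Pdpn, the podoplanin gene, was at 52.4, 26.3 and 22.1 CPM in AAV-VEGFC rats and at 27.8, 34.3 and 29.1 CPM in AAV-GFP rats. It was at 24.6, 26.8 and 23.6 CPM in BDL rats and at 21, 21.8 and 22.9 CPM in sham rats. AAV-VEGFC 1 stood far above the other 11 libraries. AAV-GFP lay above BDL, and BDL above sham, with no overlap in either pair. The log2 fold change of AAV-GFP against BDL was 0.28 ± 0.25 (adjusted p = 0.566). It passed with limma voom (adjusted p = 0.0342, 36.5% of all genes called) and without the 3 libraries that stood apart (0.34, adjusted p = 0.0369, 28.3% called). AAV-VEGFC against AAV-GFP gave 0.14 ± 0.25 (adjusted p = 0.969), with values from -0.33 without AAV-VEGFC 1 to 0.37 without AAV-VEGFC 3. AAV-VEGFC against BDL gave 0.43 ± 0.25 (adjusted p = 0.281), from -0.045 without AAV-VEGFC 1 to 0.65 without AAV-VEGFC 3. BDL against sham gave 0.19 ± 0.25 (adjusted p = 1). Astrocyte genes, summed over 10, stood at 14200 CPM in AAV-VEGFC 1, at 8340 and 8670 CPM in the other AAV-VEGFC libraries, at 9440 to 10800 CPM in AAV-GFP, 8200 to 8630 CPM in BDL and 8120 to 8490 CPM in sham rats. Podoplanin is also made by astrocytes, meninges and choroid plexus, and their part in these values was not tested.

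In BDL against sham rats, the members with the smallest p were Mrc1 and Lyve1, receptors shared by lymphatic endothelium and border macrophages, and neither passed the test. Mrc1 was at 4.99, 5.31 and 4.79 CPM in AAV-VEGFC rats and at 7.86, 6.11 and 5.82 CPM in AAV-GFP rats. It was at 4.92, 6.93 and 5.87 CPM in BDL rats and at 2.97, 4.38 and 3.66 CPM in sham rats. Every ligated library was above every sham library. The log2 fold change of BDL against sham was 0.69 ± 0.19 (95% interval 0.28 to 1.10, adjusted p = 0.389). It passed with limma voom (adjusted p = 0.0375, where 2.7% of all genes were called). AAV-VEGFC lay below AAV-GFP without overlap, which 2.77% of all genes did on the lower side, by -0.39 ± 0.18 (95% interval -0.80 to 0.015, adjusted p = 0.948), and -0.25 without AAV-GFP 1. Against BDL, AAV-VEGFC gave -0.23 ± 0.18 (adjusted p = 0.441) and AAV-GFP 0.16 ± 0.18 (adjusted p = 0.665), the second with values from 0.0076 without AAV-GFP 1 to 0.29 without BDL 2.

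Lyve1 was at 3.28, 4.67 and 4.04 CPM in AAV-VEGFC rats and at 3.13, 4.42 and 4.91 CPM in AAV-GFP rats. It was at 4.36, 4.27 and 3.42 CPM in BDL rats and at 2.13, 3.2 and 3.06 CPM in sham rats. BDL lay above sham without overlap, and the vector groups spanned the BDL range. For BDL against sham the log2 fold change was 0.52 ± 0.23 (95% interval 0.022 to 1.02, adjusted p = 0.817). AAV-VEGFC against AAV-GFP gave -0.054 (95% interval -0.55 to 0.44), AAV-VEGFC against BDL -0.0046 (-0.50 to 0.49), and AAV-GFP against BDL 0.049 (-0.45 to 0.54). Over the 12 libraries the log2 CPM of Lyve1 and Mrc1 had a Pearson correlation of 0.59, again a description.

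The windows around the starts of Lyve1, Mrc1 and Pdpn are shown because BDL lay above sham without overlap in each. The same letters as in Tie1 are in capitals. Lyve1 lies at chr1:174410928-174411227, minus strand, Mrc1 at chr17:82157475-82157774, plus strand, and Pdpn at chr5:160918910-160919209, minus strand, in RefSeq's GRCr8.
Lyve1: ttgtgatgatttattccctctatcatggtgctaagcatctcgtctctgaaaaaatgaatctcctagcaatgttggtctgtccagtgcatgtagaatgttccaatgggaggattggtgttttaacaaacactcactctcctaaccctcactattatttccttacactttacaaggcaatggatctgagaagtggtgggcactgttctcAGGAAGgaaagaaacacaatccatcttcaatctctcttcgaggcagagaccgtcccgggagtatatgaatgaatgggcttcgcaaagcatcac
Mrc1: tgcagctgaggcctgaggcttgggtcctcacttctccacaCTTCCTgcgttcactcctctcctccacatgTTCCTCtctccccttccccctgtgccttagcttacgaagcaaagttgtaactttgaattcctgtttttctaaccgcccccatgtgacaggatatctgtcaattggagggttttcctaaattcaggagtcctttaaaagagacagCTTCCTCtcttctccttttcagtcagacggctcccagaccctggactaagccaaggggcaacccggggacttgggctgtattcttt
Pdpn: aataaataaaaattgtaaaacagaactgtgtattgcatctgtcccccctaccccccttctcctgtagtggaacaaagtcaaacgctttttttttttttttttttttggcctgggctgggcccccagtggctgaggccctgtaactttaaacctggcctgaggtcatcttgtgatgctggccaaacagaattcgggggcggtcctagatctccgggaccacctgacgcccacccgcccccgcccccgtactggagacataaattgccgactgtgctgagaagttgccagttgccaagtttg
Lyve1 holds 1 match of AGGAAG and 0 of GAGGAA, Mrc1 holds 2 of each, Pdpn holds 0 of either, and TATAAA is in none of the 3. GAGGAA is also the core that the macrophage factor PU.1 binds, and no match says only that the letters are not in this window.

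Over the whole set, 0 of 8 members passed in BDL against sham by edgeR, where 0.109% of all genes were called (0.0934% higher and 0.0156% lower). At an unadjusted p under 0.05 there were 2 members, Mrc1 and Lyve1, against 5.9% of all genes. DESeq2 called 0 members (0.842% of all genes) and limma voom 1 (2.7%). Groups did not overlap, with BDL higher, for 5 of 8 members (Mrc1, Lyve1, Angpt2, Pdpn and Prox1), against 12.6% of all genes, and with BDL lower for 0, against 12.4%. The members' median log2 fold change was 0.22 and that of all genes 0.01. In AAV-VEGFC against AAV-GFP 0 of 8 were called by edgeR, DESeq2 or limma voom, where edgeR and voom each called 0.00778% of all genes and DESeq2 0.078%. The higher side without overlap held 0 members (3.29% of all genes). In that comparison 0 members had an unadjusted p under 0.05, against 4.37% of all genes, and the medians were -0.05 and 0.01. In AAV-VEGFC against BDL, the higher side without overlap held Tek and Tie1 (14.6% of all genes) and the lower side Prox1 and Angpt1 (18.3%).

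Border macrophage genes were set beside Mrc1 and Lyve1. Of 17 listed 11 had a row and 10 were tested. In BDL against sham 0 were called, and the list median was 0.75 with BDL higher for 5 of 10 without overlap, against 12.6% of all genes. Cd163, a haemoglobin scavenger receptor, averaged 1.84 ± 0.503 CPM in BDL and 0.674 ± 0.231 CPM in sham rats (log2 fold change 1.44 ± 0.31, adjusted p = 0.22; SD, n = 3 each). In AAV-VEGFC against AAV-GFP the 10 fold changes were all below 0, with a median of -0.42 and 0 calls. This was not particular to them: of 20 meningeal genes 0 were above 0 there, with a median of -0.26 and 0 calls. Against BDL, Dab2, an endocytic adaptor, fell with AAV-VEGFC (1 of 10, against 7.02% of all genes called lower) and was at 8.98 ± 1.47 CPM in AAV-VEGFC and 13.5 ± 2.1 CPM in BDL rats (log2 fold change -0.59 ± 0.15, adjusted p = 0.0349). The summed list ran from 24.7 to 32.0 CPM in AAV-VEGFC, 33.5 to 37.2 CPM in AAV-GFP, 33.1 to 39.1 CPM in BDL and 30.1 to 33.5 CPM in sham rats. Ms4a7 was at 0 in 9 of 12 libraries, and Siglec1, Ccr1 and Lilrb4 were at 0 in some. Summed over 20 genes, meningeal genes ran from 326 to 808 CPM in BDL and from 274 to 379 CPM in sham rats. Summed over 7 genes, blood genes ran from 410 to 811 CPM in BDL and from 108 to 147 CPM in sham rats, and 5 of the 7 rose, where 0.0934% of all genes did (Alas2, Hba1, Hbb, Mmp8 and Slc4a1). The part of these cells in the Mrc1, Lyve1 and Angpt2 values was not tested.

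Other genes of lymphatic endothelium were called about as often as all genes. Of 28 listed 23 had a row and 22 were tested, Clec1b being under the filter. Flt4 averaged 4.0 CPM in AAV-VEGFC, 2.96 CPM in AAV-GFP, 3.35 CPM in BDL and 2.83 CPM in sham rats. Ccl21, a chemokine of lymphatic vessels, reached at most 0.514 CPM and was at 0 in 1 library, and Stab2, a scavenger receptor of lymphatic and liver endothelium, was at 0 in 2. In BDL against sham and in AAV-VEGFC against AAV-GFP 0 of 22 were called, with medians of 0.18 and -0.06. In AAV-GFP against BDL 1 of 22 was called, against 6.19% of all genes, and in AAV-VEGFC against BDL 2 of 22, against 9.93%. Ramp2, the partner of the adrenomedullin receptor on blood and lymphatic endothelium, rose against BDL with either vector. It averaged 22.5 ± 1.69 CPM in AAV-VEGFC, 23.9 ± 1.68 CPM in AAV-GFP and 16.5 ± 1.41 CPM in BDL rats (SD, n = 3 each; adjusted p = 0.0179 and 0.00936). Fat4, an atypical cadherin, fell with AAV-VEGFC, to 14.8 ± 2.67 CPM, against 28.0 ± 3.25 CPM in BDL rats (adjusted p = 0.0296). The summed list ran from 243 to 338 CPM in AAV-VEGFC, 299 to 348 CPM in AAV-GFP, 379 to 407 CPM in BDL and 354 to 378 CPM in sham rats. Reln, the gene with the most CPM in it, averaged 97.0 ± 43.8 CPM in AAV-VEGFC and 104 ± 19.1 CPM in AAV-GFP rats. It averaged 163 ± 4.15 CPM in BDL and 168 ± 11.2 CPM in sham rats. The sum therefore rests largely on Reln and was not computed without it.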

How the data were processed

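The submitters' processing notes name Trimmomatic 0.36, FastQC, featureCounts, HISAT2 and build rn6. Their settings, the annotation and the strandedness were not given in the sources used here. Raw counts per gene symbol are what the authors deposited. The table has 17337 rows, 4 of them with a repeated name, and 11 files of 1 library each equal its columns. Without strand, overlapping and antisense genes cannot be told apart. Groups came from sample titles. Beyond a number of rats in the design text, nothing ties libraries to animals, so p-values measure only the spread between libraries, which may be technical. Replicates were not identical (chi-square per degree of freedom 11.1 to 214).

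With R 4.3.3 and edgeR 4.0.16, TMM factors, filterByExpr and 1 quasi-likelihood model of all 12 libraries were computed, and CPM from TMM-scaled library sizes. The test was tried on simulated counts first. Alternatives were DESeq2 1.42.0 (test, and size factors in edgeR), limma 3.58.1 voom with quality weights, 2 other filters, the compared groups alone, a replicate block, an adjusted p under 0.1, each library left out, and 3 libraries left out. Likeness was Pearson's correlation of log2 CPM (prior count 2) over genes of at least 1 CPM. From each list, genes past the threshold (at most 4 with the smallest p), or the 1 with the smallest p, could be named, and others are given to describe coverage. The members and lists were chosen with earlier results of these data known. Figures were drawn with matplotlib 3.10.9.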

Additional observations from a re-analysis of the deposited data

How the results depend on the processing

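Fold changes of the 8 members in 4 comparisons, 32 in all, were computed under 14 alternatives each. Of these 448 values 29 had the opposite sign, 9 were called where the edgeR test of all libraries made no call, 0 lost a call, and 22 of the 32 never turned. With limma voom the members called were 1 in BDL against sham (Mrc1), 3 in AAV-GFP against BDL (Tek, Tie1 and Pdpn) and 2 in AAV-VEGFC against BDL (Tek and Prox1, the second at -1.39 with adjusted p = 0.00664). With the compared groups alone, AAV-GFP against BDL had 2 (Tek and Tie1). Without sham 2, AAV-GFP 1 and AAV-VEGFC 1, a choice made with earlier results of these data known, the calls were 2 in AAV-GFP against BDL (Tek and Pdpn), 1 in AAV-VEGFC against AAV-GFP (Prox1) and 2 in AAV-VEGFC against BDL (Tek and Prox1). Leaving out 1 library at a time gave 1 to 2 calls in AAV-VEGFC against BDL, with 2 only without AAV-VEGFC 1. The other values of opposite sign follow. For AAV-VEGFC against BDL, Lyve1 was 0.003 with DESeq2 size factors, 0.0046 with DESeq2, and 0.12 both with voom and without the 3 libraries, and Pdpn was -0.0097 with voom and -0.044 without the 3. For AAV-GFP against BDL, Angpt1 was 0.14 with voom and 0.15 without the 3. For AAV-VEGFC against AAV-GFP, Pdpn was -0.29 with voom and -0.38 without the 3, Tek was -0.011 with voom, and Tie1 was 0.019 without the 3. Leaving out single libraries gave ranges across 0 for Tie1 in BDL against sham (-0.055 to 0.23), for Lyve1 (-0.088 to 0.21) and Angpt1 (-0.14 to 0.15) in AAV-GFP against BDL, and for Lyve1 (-0.13 to 0.12) and Pdpn (-0.045 to 0.65) in AAV-VEGFC against BDL. In AAV-VEGFC against AAV-GFP they were -0.22 to 0.083 for Lyve1, -0.33 to 0.37 for Pdpn, -0.062 to 0.077 for Tek and -0.061 to 0.49 for Angpt2. The cause was not tested. Fits that leave an arm with 2 libraries share the spread of the other groups. With a replicate block, Tek was 0.60 in AAV-GFP against BDL (adjusted p = 0.0194) and 0.61 in AAV-VEGFC against BDL (adjusted p = 0.0137), and no count of members called moved. The labels share only a number: over 18 pairs of libraries with the same number, deviations from the group means had correlations of -0.128 to 0.069. Angpt1 and Angpt2, at 35 to 185 reads, had the least depth of the 8, and the part of depth in their spread was not tested.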

Other observations

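For 7 of the 8 members, the 3 genes whose log2 CPM followed each most closely over the 12 libraries were taken from 11216 genes with a mean of at least 1 CPM. The libraries share their groups, and these correlations are a description. For Tek they were Itm2a (Pearson r = 0.97), Acvrl1, an endothelial receptor of the BMP family (0.97), and the tubulin gene Tuba1b (0.96). For Tie1 they were Pcsk1n, complement factor B (Cfb) and the lectin Lgals9, at 0.93, 0.92 and 0.92. For Angpt2 they were Aldh16a1 (0.97), Itfg1 (0.92) and Abcb1a, an efflux pump of brain endothelium (0.89). For Angpt1 they were Slc9a2 (0.95), Nrp2, a coreceptor of VEGFC (0.94), and Lhx9, a homeobox factor (0.93). For Prox1 they were Arhgap12, Ahcyl2 and Camta2, at 0.96, 0.95 and 0.94. For Lyve1 they were the laminin chain Lamc3 (0.93), Copb2 (0.91) and Map2k6 (0.88), and for Mrc1 they were Tceal7 (0.92), Mboat1 (0.91) and Taf6 (0.91).

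Among genes of pericytes and smooth muscle, the cells that surround vessels, 3 of 15 rose with AAV-GFP against BDL (0.988% of all genes did). They were Acta2, Des and Tagln. With AAV-VEGFC against BDL 0 rose (2.91%), a difference between comparisons that was not tested. In AAV-GFP against BDL 11 of the 15 fold changes were above 0. The means of Pdgfrb, Cspg4 and Abcc9 were lower in AAV-GFP than in BDL rats (27.3 and 30.0, 43.0 and 45.5, 15.5 and 17.9 CPM). Acta2, smooth muscle actin, averaged 19.6 ± 7.35 CPM in AAV-GFP and 7.34 ± 2.79 CPM in BDL rats (SD, n = 3 each, edgeR adjusted p = 0.0318). In AAV-VEGFC against BDL the list median was 0.38 with groups apart on the higher side for 6 of 15, against 14.6% of all genes, and 0 of 15 passed. The summed list ran from 283 to 299 CPM in AAV-VEGFC, 264 to 317 CPM in AAV-GFP, 203 to 260 CPM in BDL and 210 to 230 CPM in sham rats. Of the other cell types listed, Olig2 of 10 oligodendrocyte genes rose with either vector against BDL and Glul of 10 astrocyte genes rose with AAV-VEGFC against BDL, where 0.988% (AAV-GFP) and 2.91% (AAV-VEGFC) of all genes were called higher. In the 4 comparisons 0 genes were called in the lists of microglia, meninges, choroid plexus, ependyma, cortical and midbrain neurons.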
